A study of Arabidopsis thaliana with 9 samples.

Results

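HIS1-3 and COR15A are stress-linked genes of Arabidopsis, and both were far higher in cauline buds on the arrays labelled mock than on those labelled NAA or NAA+BA. The genes have 1 probe set each, 2 of the 22810 on the ATH1 array, found through the platform annotation by their loci AT2G18050 and AT2G42540, both on chromosome 2. They were chosen by their values on these same 9 arrays, with the low level on the arrays labelled NAA in view. Buds came from Col-0 wild-type plants aged 3 to 4 weeks, on excised stem segments that carried the bud of node 1 in split agar plates, and were taken after 18 h. The arrays labelled mock were of segments given a small volume of the solvents, 70% ethanol apically and, by the study's methods, DMSO basally. Those labelled NAA had 1 µM of the synthetic auxin NAA (1-naphthaleneacetic acid) apically, and those labelled NAA+BA had the same with 1 µM of the cytokinin (CK) BA (6-benzylaminopurine) basally. The design asks what apical auxin does to a bud and what basal CK does to a bud held back by auxin, with 3 biological replicates in each of the 3 groups. The RNA is that of whole buds on isolated segments, without the root or the shoot apex.

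The labels and the study's own list of responsive transcripts name the mock and NAA arrays the opposite way round. Of 220 probe sets on that list, the sign of the difference between NAA and mock was the same for 0 by the labels and for all 220 with the names mock and NAA exchanged. By the study's rule the list holds transcripts at least 2-fold lower with auxin than mock and at least 2-fold higher once CK was added. Neither HIS1-3 nor COR15A is on it. With the names exchanged both genes were higher with NAA than mock, a direction that the list leaves out. By the labels 1241 probe sets were called between NAA+BA and mock and 2 between NAA+BA and NAA. The study instead reports buds with mock and with auxin plus CK as nearly alike, so that these counts too are the opposite way round. Groups are named by their labels throughout, and with the names exchanged every statement on mock below is one on NAA and the reverse. The arrays had medians between 6.99 and 7.11 in log2 expression value. The reference gene UBC21 (PEX4 in the annotation) differed by -0.02 between NAA and mock and by 0.00 between NAA+BA and mock. Of 9 listed genes of the shoot meristem and leaf axil, 3 have a named probe set, UFO, LAS and CLV3. On every array their mean value was below the array's median, between 5.25 and 5.83. None of the 3 was called in any comparison, where 3.51% of all probe sets were called lower and 1.28% higher with NAA than mock.

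Linker histones bind DNA where it enters and leaves the nucleosome and help to fold chromatin. Arabidopsis has main types that are made in most cells and a divergent one, encoded by HIS1-3, which is induced by drought and abscisic acid (ABA) and is also found in guard cells. COR15A encodes a small protein of the chloroplast stroma that protects membranes in freezing cells. It is a target of the CBF transcription factors, which bind a drought- and cold-response element, and ABA also raises its transcript. ABA is a hormone of water stress and of seed and bud dormancy.

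The transcript level of HIS1-3 (probe set 265817_at) was high with mock, low with NAA and in between with NAA+BA. Its log2 expression value was 11.18, 11.08 and 9.41 on mock replicates 1, 2 and 3. With NAA it was 4.31, 4.72 and 3.61. With NAA+BA it was 7.83, 7.52 and 5.28. No array of one group overlapped with those of another, and replicate 3 was the lowest of each group. Replicate 3 also had the lowest array weight of each group, which falls as an array lies further from its group mean over all probe sets. The weight was 0.16 with mock, 0.23 with NAA and 0.66 with NAA+BA. The means were 10.56 ± 1.00 (SD, n = 3) for mock, 4.22 ± 0.56 (SD, n = 3) for NAA and 6.88 ± 1.39 (SD, n = 3) for NAA+BA. These are whole-bud values, in which fewer cells with the transcript and less transcript per cell cannot be told apart.

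The size of these differences set HIS1-3 apart from nearly all other probe sets, which is how it was chosen, so that they are given as a description without a test. NAA differed from mock by -6.34 on the log2 scale (standard error 0.67), an 81.1-fold lower level, and NAA+BA by -3.68 (standard error 0.67), a 12.8-fold lower level. Of all 22810 probe sets the difference for NAA ranked 2 from the lowest and that for NAA+BA ranked 3, and in each case HIS1-3 ranked 1 among those with a gene name. On the mock arrays 94.6% of probe sets had a lower mean than HIS1-3, and on the NAA arrays 20.9% did. The gene thus went from among the brightest on the array to among the dim ones. RMA compresses differences at the dim end, and no detection call goes with these values, so that the level with NAA is a value and not an absence.

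COR15A (probe set 263497_at) showed the same order of group means over a smaller range. Its log2 expression value was 8.94, 10.04 and 9.18 on mock replicates 1, 2 and 3. With NAA it was 6.81, 7.35 and 6.41. With NAA+BA it was 6.64, 8.44 and 7.39. All 3 mock arrays were above all others, while the NAA and NAA+BA arrays overlapped, with NAA+BA replicate 1 below 2 of the NAA arrays. Replicate 2 was the highest of each group, where for HIS1-3 replicate 3 was the lowest. The means were 9.39 ± 0.58 (SD, n = 3) for mock, 6.86 ± 0.47 (SD, n = 3) for NAA and 7.49 ± 0.90 (SD, n = 3) for NAA+BA.

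For COR15A, NAA differed from mock by -2.53 on the log2 scale (standard error 0.44), a 5.78-fold lower level, and NAA+BA by -1.90 (standard error 0.44), a 3.72-fold lower level. These differences ranked 67 and 126 from the lowest of all probe sets. COR15A was thus well inside the tail in which HIS1-3 stood at the end. Both genes are among the 3.51% of probe sets called lower with NAA than mock and the 3.25% called lower with NAA+BA than mock, where calling a probe set took at least 2-fold and, in limma, an adjusted p below 0.05. The choice of the genes used these arrays, and nothing is read from the calls.

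**Figure D1:**
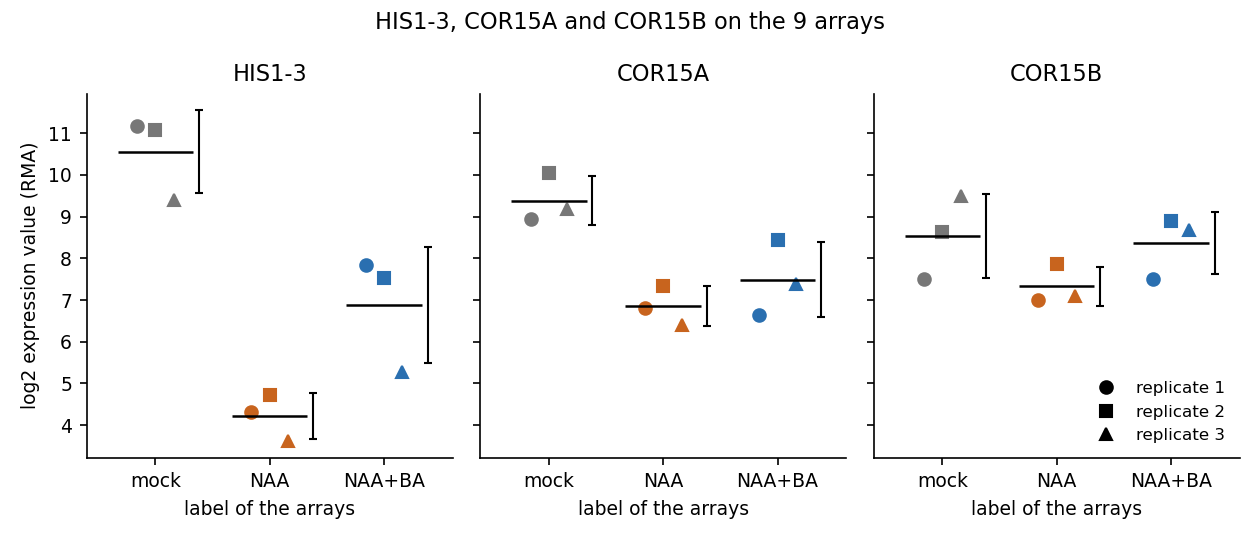
Log2 expression value (y axis) of HIS1-3, COR15A and its neighbour COR15B on the 9 arrays, by label (x axis). Symbols are replicates 1 to 3, horizontal lines are group means and vertical bars are SD (n = 3); the HIS1-3 arrays of the 3 groups do not overlap, and COR15A is highest on the mock arrays, at 8.94 to 10.04.

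Both genes varied more between replicates than most probe sets. The SD of HIS1-3 was larger than that of 99.3% of probe sets with mock, 97.0% with NAA and 99.9% with NAA+BA, where the median SD was 0.21, 0.16 and 0.14. For COR15A the same shares were 93.6%, 94.5% and 99.7%. With NAA+BA, 19 probe sets had a larger SD than HIS1-3 and 64 a larger one than COR15A. HIS1-3 spanned 2.55 on the log2 scale over the NAA+BA arrays, from replicate 3 to replicate 1, and COR15A spanned 1.80, from replicate 1 to replicate 2. NAA+BA replicate 1 was thus the highest for HIS1-3 and the lowest for COR15A.

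From NAA to NAA+BA, HIS1-3 had an estimate of 2.66 on the log2 scale (standard error 0.67), which is 6.33-fold, the second highest of all probe sets. The gene was chosen with its low values on the NAA arrays in view, and these values enter the estimate, so that it is a description without a test. Arrays with the same replicate number differed by 3.52, 2.80 and 1.67, so that NAA+BA was higher in each of the 3. The estimate was between 2.19 and 3.46 without any single array. In the fit the gene was not among the 0.00877% of probe sets called in this comparison. It was among those called with the replicate number as a block (0.0307%), with array weights (0.132%) and on replicates 1 and 2 alone (0.0307%), the last added once the values were known. Nothing is read from these calls, for the same reason.

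COR15A differed less between these groups, by 0.63 on the log2 scale (standard error 0.44), with overlapping arrays, and is likewise described without a test. With the same replicate number the differences were -0.17, 1.09 and 0.98, so that NAA+BA was lower than NAA for number 1. The estimate fell to 0.16 without NAA+BA replicate 2 and to 0.41 without NAA replicate 3, and rose to 1.06 without NAA+BA replicate 1. With array weights it was 0.38. Whether HIS1-3 and COR15A differ in their change from NAA to NAA+BA was not tested.

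The place of NAA+BA between the other groups can be given as a position on the log2 scale, where 0% is the mean with NAA and 100% the mean with mock. HIS1-3 had a position of 42.0% and COR15A one of 25.1%. With the names mock and NAA exchanged these become 58.0% and 74.9%. Single NAA+BA arrays stood at 57.0%, 52.1% and 16.8% for HIS1-3 in the order of the replicates, and at -8.4%, 62.6% and 21.0% for COR15A. For HIS1-3 all 3 arrays were thus between the group means, with replicate 3 nearer to NAA. For COR15A replicate 1 was slightly below the NAA mean and replicate 2 past the middle.

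Within arrays of the same number the position of HIS1-3 was 51.2%, 44.0% and 28.8%, and that of COR15A was -7.8%, 40.6% and 35.3%. Leaving out single arrays gave 34.5% to 54.5% for HIS1-3. For COR15A it gave 6.28% without NAA+BA replicate 2, 41.8% without NAA+BA replicate 1 and 17.9% to 31.7% without any other, and with array weights it was 14.4%. On the linear scale, where the mock arrays weigh more, the positions were 7.66% for HIS1-3 and 14.4% for COR15A, so that the order of the genes is the reverse of that on the log2 scale. HIS1-3 had linear means of 1723 with mock, 19.5 with NAA and 150 with NAA+BA, and COR15A had 708, 120.0 and 205.

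Among the 800 probe sets called lower with NAA than mock, the median position was 9.68%, with quartiles of -2.19% and 21.0%. Of these, 41 (5.12%) had a higher position than HIS1-3 and 146 (18.2%) a higher one than COR15A. At a difference of 4-fold or more there were 154, with a median position of 16.2%, and 9 of them stood above HIS1-3. All 800 were selected on the difference between NAA and mock, which also enters the position, and the effect of this on the positions was not tested. By their group means HIS1-3 and COR15A thus stood in the upper part of this range. For COR15A this rested on few arrays. Its position of 6.28% without NAA+BA replicate 2 was below that median, and 14.4% with array weights was within the quartiles. These shares are a description without a test.

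**Figure D2:**
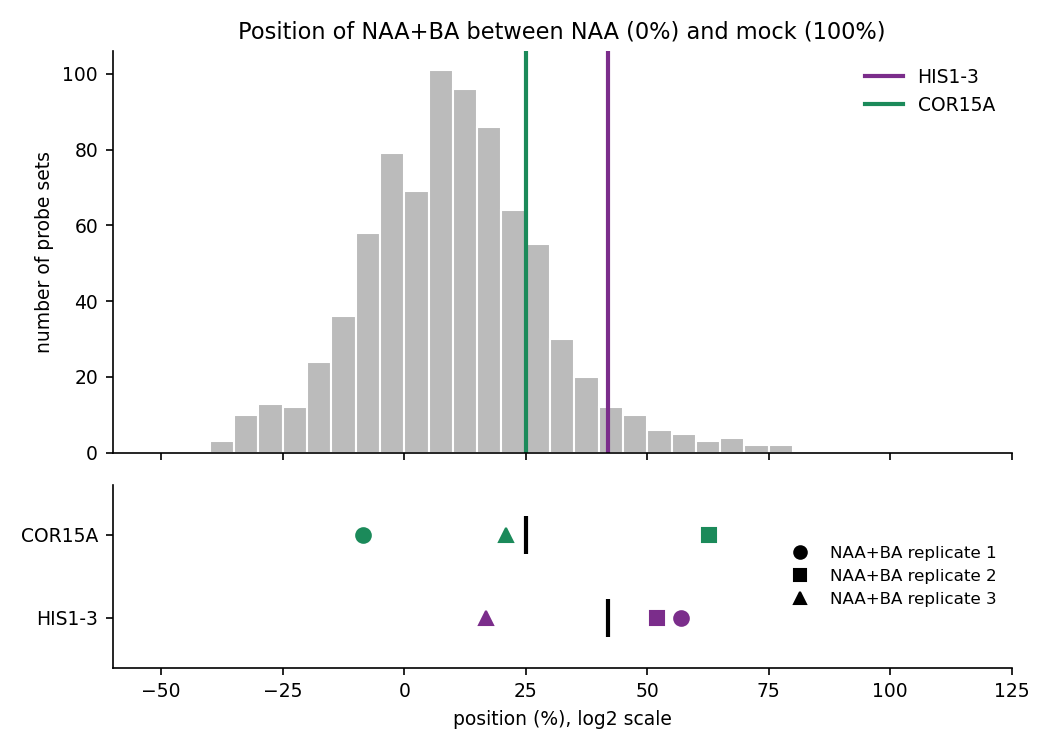
Position of NAA+BA between NAA (0%) and mock (100%) on the log2 scale (x axis). The upper panel counts the 800 probe sets called lower with NAA than mock, with lines for HIS1-3 at 42.0% and COR15A at 25.1%; the lower panel shows the single NAA+BA arrays as symbols and the group mean as a bar, and the arrays of COR15A spread from -8.4% to 62.6%.

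COR15B (AT2G42530) lies beside COR15A in the TAIR10.1 annotation and encodes a closely related protein of the same kind. The group means of COR15B had the same order as those of COR15A, with NAA+BA nearer to mock. Its log2 expression value was 7.49, 8.63 and 9.50 on mock replicates 1, 2 and 3. With NAA it was 7.01, 7.87 and 7.10. With NAA+BA it was 7.50, 8.89 and 8.69. All 3 groups overlapped, and the mean with NAA+BA, 8.36 ± 0.75 (SD, n = 3), was near that with mock, 8.54 ± 1.01 (SD, n = 3). NAA differed from mock by -1.21 (standard error 0.50, adjusted p = 0.1284 from limma), which was not called. The difference was called with the replicate number as a block (adjusted p = 0.0197 from limma, with 3.75% of probe sets called lower) and without mock replicate 1 (adjusted p = 0.0458). Whether the numbers pair these arrays is not stated by the labels. The estimate was -0.73 without mock replicate 3 and -0.62 on replicates 1 and 2 alone, and was not called in either. NAA+BA differed from mock by -0.18 (adjusted p = 0.8594 from limma), an estimate that turned to 0.30 and 0.25 without mock replicate 3 and without NAA+BA replicate 1. Probe sequences were not used here, so that the share of the signal that these related transcripts give to each other's probe sets is unknown. A test of the difference between the genes was not run.

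The other linker histone genes showed no such differences. HON1 (AT1G06760) and HON2 (AT2G30620), which encode the main linker histones, stood at mean log2 expression values of 11.7 and 12.1 with mock, and differed by -0.09 and -0.02 with NAA and by -0.28 and -0.15 with NAA+BA. None of these estimates passed limma's test (adjusted p 0.2839 to 0.9533), and the sign for NAA turned without mock replicate 1 for both genes and, for HON2, without mock replicate 2 or with arrays centred on their medians. HON4 (AT3G18035), annotated as a histone H1 and looked up after the values were seen, differed by -0.39 and -0.37 (adjusted p = 0.0695 and adjusted p = 0.0764 from limma). The core histone genes HTB1 and HTB2, which encode histone H2B, went the other way at under 2-fold. HTB1 was higher with NAA than mock by 0.88 and HTB2 by 0.74 (adjusted p = 0.0086 and adjusted p = 0.0055 from limma).

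Some genes of cold and ABA response were called lower with NAA and NAA+BA than mock, among the few that could be measured. Of 81 genes listed for the cold regulon, ABA response, ABA signalling and ABA synthesis and breakdown, 8 have a named probe set, 6 of the cold regulon and 2 of ABA response. With NAA, 4 of the 8 were called lower than mock and 0 higher, against 3.51% and 1.28% of all probe sets. With NAA+BA, 3 were called lower and 0 higher, against 3.25% and 2.19%. All 8 estimates were below 0 in both comparisons, with medians of -1.42 and -0.77 where all probe sets had medians of 0.04 and 0.02. Both comparisons share the mock arrays. HIS1-3 and COR15A are not counted among the 8, which were listed with results of these data known.

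LEA4-5, a late embryogenesis abundant protein gene whose product protects cells from drying, had the lowest estimates of the 8. It differed from mock by -2.69 with NAA (standard error 0.37, adjusted p = 0.0018 from limma) and by -2.45 with NAA+BA (adjusted p = 0.0029). Its log2 expression value was 7.76, 8.02 and 6.45 on the mock arrays and between 4.48 and 5.39 on the other 6. COR27, a cold-regulated gene that also acts in the circadian clock, differed by -2.02 and -1.76 (adjusted p = 3.76e-04 and adjusted p = 8.66e-04). Both genes were called in each comparison without any single array. From NAA to NAA+BA they differed by 0.24 for LEA4-5 and 0.26 for COR27.

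COR47, a dehydrin gene of the cold regulon, resembled COR15A in the order of its group means. It differed from mock by -1.63 with NAA (adjusted p = 0.0019 from limma) and by -0.85 with NAA+BA (adjusted p = 0.0254), the latter under 2-fold and so not called. It was called there without mock replicate 3 or without NAA+BA replicate 1, at -1.01 and -1.04. LTI30, another dehydrin gene, differed by -2.06 and -1.91 (adjusted p = 0.0276 and adjusted p = 0.0335 from limma), and mock replicate 2 at 8.18 stood above the other mock arrays, at 6.26 and 5.49. Without that array the estimates were -1.29 and -1.15, and both were still called. Its call with NAA was lost without mock replicate 1 or any 1 of the NAA arrays (adjusted p 0.0573 to 0.0807), and that with NAA+BA without mock replicate 1, NAA replicate 1, NAA replicate 2 or any 1 of the NAA+BA arrays (adjusted p 0.0507 to 0.1178). COR28, LEA4-1 and the zinc finger gene ZAT10 were not called, with estimates between -0.70 and -0.21.

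No member of the cold and ABA lists was called between NAA+BA and NAA, where 0.00877% of all probe sets were. The adjusted p from limma was 0.9996 for each of the 8, and 1 of them, COR47, had an unadjusted p under 0.05. The median difference of the 8 was 0.21, and COR15B had the highest, at 1.03. The genes of ABA signalling and of ABA synthesis and breakdown, and those listed for bud dormancy and starvation, could not be matched by name to the array, so that no values are given for them.

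A further 12 genes carry cold, drought, salt, heat or late embryogenesis in their annotated names, a list drawn up after the values were seen. Of these, SIS (Salt Induced Serine rich) and LEA18, a further late embryogenesis abundant protein gene, were called lower, both in each comparison with mock, which is 2 of 12 against 3.51% of all probe sets with NAA and 3.25% with NAA+BA. SIS differed by -3.42 with NAA and -2.37 with NAA+BA, and LEA18 by -2.31 and -2.17. The other 10 lay between -0.69 and 0.40 with NAA and between -0.57 and 0.70 with NAA+BA, with DI21, AT2G46140 and SAT32 above 0. The median of the 12 was -0.14 with NAA and -0.30 with NAA+BA, so that low values with NAA were not general among genes with such names.

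**Figure D3:**
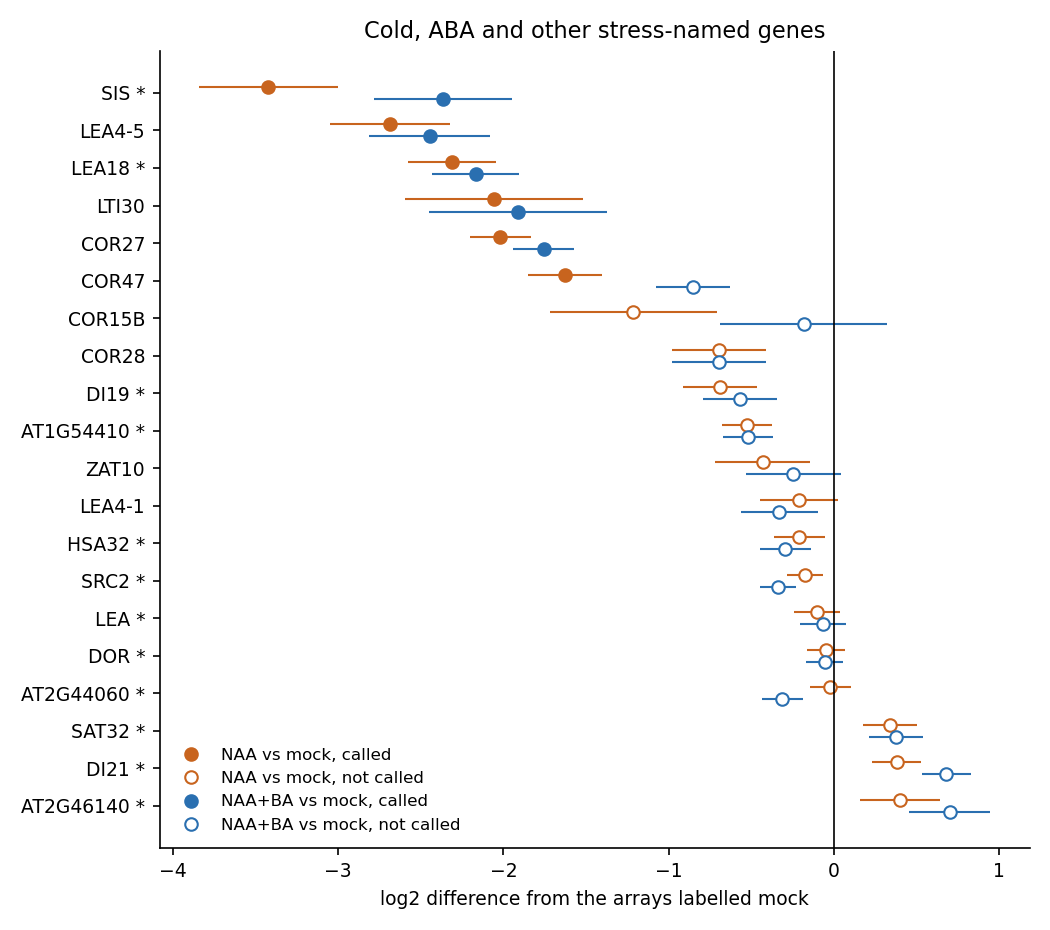
Log2 difference from the arrays labelled mock (x axis) with its standard error for 20 genes of cold, ABA or other stress (y axis), with NAA and with NAA+BA. Filled symbols were called and open ones were not, asterisks mark the genes found by their annotated names; SIS is the lowest with NAA, at -3.42, and 3 genes are above 0.

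The profiles nearest to each gene were found by the root mean square difference over the 9 arrays, after each probe set was centred on its own mean. To HIS1-3 the nearest named genes were AT1G49500 at 1.13, SIS at 1.3, AT2G05540 at 1.33, AT4G14270 at 1.34 and CCL at 1.42, in log2 units, where the median named probe set was at 2.76. All 5 had the same order of group means, which the choice of the nearest profiles favours, so that nothing is read from it. None matched the range of HIS1-3, the largest difference between NAA and mock being -4.33 for AT1G49500. From NAA to NAA+BA they differed by 0.87 to 1.47, and CCL had the highest of these estimates.

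To COR15A the nearest were PIFI, a chloroplast protein gene, at 0.47, AT4G16190 at 0.48, AT5G02160 at 0.50, BETA-VPE, which encodes a vacuolar processing enzyme, at 0.51 and AT1G76590 at 0.52, where the median was 1.25. Of these, AT4G16190 differed from mock by -2.33 with NAA and by -1.60 with NAA+BA, and AT5G02160 by -1.87 and -1.67. The distance between HIS1-3 and COR15A was 1.81, which made COR15A number 41 in order of nearness to HIS1-3. Seen from COR15A, 13459 named probe sets were nearer than HIS1-3, since its range is so much wider. These genes were picked for their likeness, which is a description over 9 arrays in 3 groups.

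**Figure D4:**
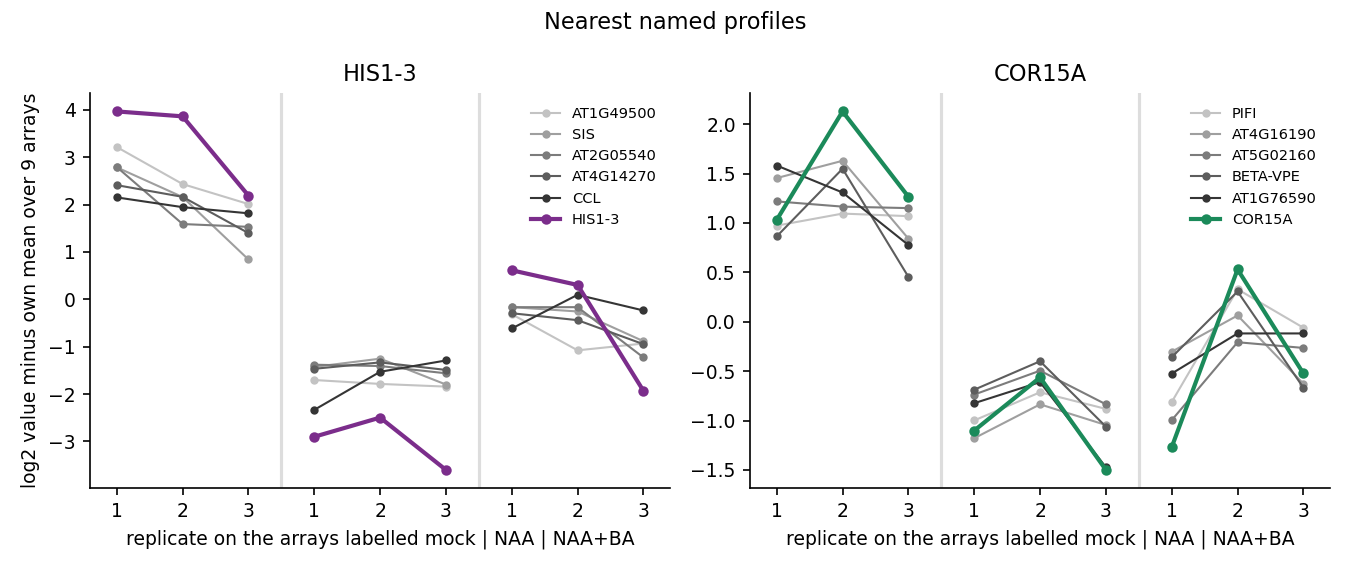
Log2 expression value minus the probe set's own mean over the 9 arrays (y axis) for HIS1-3 and COR15A and the 5 nearest named profiles of each, by array (x axis, replicates 1 to 3 of mock, NAA and NAA+BA). Lines join arrays of 1 group only; the profiles of HIS1-3 run from high with mock to low with NAA, and HIS1-3 itself has the widest range.

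The genes beside HIS1-3 and COR15A on chromosome 2 were compared as well. Of the 5 protein-coding genes on each side in TAIR10.1, 4 around HIS1-3 and 5 around COR15A have a named probe set. None of these 9 was called in any comparison, though COR15B, next to COR15A, differed from mock by -1.21 with NAA and was called with the replicate block. Over all probe sets 3.51% were called lower and 1.28% higher with NAA than mock, and 3.25% and 2.19% with NAA+BA. Between NAA+BA and NAA 0.00877% were called, so that no call among 9 says little about these neighbours. Around HIS1-3 the differences from mock lay between -0.23 and 0.56, with MSRA5 the highest. Around COR15A the other 4 lay between 0.01 and 0.47.

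HIS1-3 is made in guard cells and COR15A in green tissue, so that markers of these were compared as well. Of 9 listed genes of guard cells and the stomatal lineage 4 have a named probe set, GC1, SPCH, FAMA and MUTE. None was called in any comparison, where 3.51% of all probe sets were called lower and 1.28% higher with NAA than mock. With NAA, SPCH differed from mock by 0.59, GC1 by 0.00, FAMA by -0.31 and MUTE by -0.26. With NAA+BA these differences were 0.23, 0.50, -0.42 and -0.47, so that the 4 did not move together. Their mean log2 expression value was between 6.50 and 7.13 on the mock arrays, between 6.61 and 7.0 with NAA and between 6.59 and 6.93 with NAA+BA. Of 9 listed genes of leaf photosynthesis 1 has a named probe set, RCA, which encodes rubisco activase. It differed from mock by -0.56 with NAA and by -0.81 with NAA+BA, at under 2-fold (adjusted p = 0.0357 and adjusted p = 0.0080 from limma), with values of 13.36 to 13.72 on the mock arrays, 12.96 to 13.17 with NAA and 12.57 to 13.04 with NAA+BA. By its group means RCA was thus lowest with NAA+BA, where COR15A was lowest with NAA. From NAA to NAA+BA, RCA differed by -0.25 (adjusted p = 0.9996 from limma), and the arrays of these groups overlapped for both genes. The part of RCA in the difference of COR15A was not tested. Of 6 listed root genes 1 has a named probe set, EXPA7, which was at 3.84 to 5.18 on the 9 arrays and was not called. Of 10 listed genes of the stem's vessels and fibres, 0 were matched to a named probe set.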

How the data were processed

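RNA from 9 samples of cauline buds, 3 in each of 3 groups, was measured on Affymetrix ATH1 arrays. The deposited values are log2 expression values, which the authors made with RMA in R 2.15. RMA corrects the background, sets all arrays to 1 distribution and gives 1 value per probe set. No source used here gives the version of that software. All 22810 probe sets entered the fit. Precision is limited by there being 3 arrays per group, and the groups are those of the deposited titles.

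Group means were estimated from the 9 arrays together by lmFit and eBayes (limma 3.58.1, R 4.3.3), and p-values of each comparison were adjusted by Benjamini-Hochberg across every probe set. Calls took an adjusted p below 0.05 with at least a 2-fold difference. The procedure was tested on simulated data. Same-numbered arrays of NAA and mock deviated together from their group means (correlations of 0.32, 0.38 and 0.45). Numbers 1 and 2 also correlated with each other across these groups (0.225 and 0.287). Number 3 stood apart, at -0.41 to -0.35 with the other numbers. Whether the numbers pair the arrays is not settled by these values, and the labels do not state it.

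The platform annotation gives 1 gene symbol to 13513 probe sets, several to 503 and none to 8794, and 13436 were matched to a locus in RefSeq's TAIR10.1 table. Members and lists were chosen with earlier results of these data known. Named in the text by rule were the members, COR15B, the linker histones, up to 6 genes of each list (those called first) and the 5 nearest profiles of each member. Other genes named were chosen after their values were seen, namely those found by words in their annotated names, HON4, MUTE, MSRA5 and, of the cold and ABA lists, COR28, LEA4-1 and ZAT10. The alternatives were the replicate block, exchanged names, other normalizations, filters, thresholds and priors, array weights, the linear scale and leaving out arrays. No sequence is shown because none was in the tables used here.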

Additional observations from a re-analysis of the deposited data

How the results depend on the processing

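The replicate number as a block (replicate block) left the estimate of HIS1-3 between NAA+BA and NAA at 2.66 and put it among the 7 probe sets called there in place of 2. Same-numbered arrays of these groups correlated at 0.04, 0.30 and 0.37, and those of NAA+BA and mock at 0.24, 0.08 and 0.51. In both, number 3 had the highest value, and its arrays correlated at -0.49 to -0.09 with those of other numbers. Whether the numbers pair these arrays was not tested. Of the genes followed, the block changed no other call but that of COR15B between NAA and mock, given above. HIS1-3 was also called between NAA+BA and NAA with array weights (2.63) and with all arrays of number 3 left out (3.16). Since the NAA arrays had part in choosing the gene, its calls support nothing. Repeated quantile normalization, arrays centred on their medians, leaving out dim probe sets (those not above 5 on 3 arrays or more), treat against 1.2-fold, a trend with a robust prior, only the 6 arrays compared, an adjusted p under 0.01 and no fold threshold changed no call of HIS1-3 or COR15A in that comparison, nor did leaving out any single array, with estimates of 0.16 to 1.06 for COR15A. Against mock, the differences without any single array were -6.92 to -6.03 for HIS1-3 and -2.78 to -2.20 for COR15A with NAA, and -4.26 to -2.88 and -2.37 to -1.47 with NAA+BA. The position of HIS1-3 moved to 7.66% on the linear scale.

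With the names mock and NAA exchanged, the difference between NAA and mock turned to 6.34 for HIS1-3 and 2.53 for COR15A, that between NAA+BA and mock to 2.66 and 0.63, and that between NAA+BA and NAA to -3.68 and -1.90. The position of COR15A became 74.9%. The cold and ABA genes called numbered 0 between NAA+BA and mock and 3 between NAA+BA and NAA. The differences between NAA and mock turned to 1.21 for COR15B, 1.63 for COR47, 2.06 for LTI30, 2.02 for COR27, 0.70 for COR28, 0.43 for ZAT10, 2.69 for LEA4-5, 0.21 for LEA4-1, 0.092 for HON1 and 0.019 for HON2. Those between NAA+BA and mock turned to 1.03 for COR15B, 0.77 for COR47, 0.14 for LTI30, 0.26 for COR27, 0.0019 for COR28, 0.19 for ZAT10 and 0.24 for LEA4-5.

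Among genes not called, the sign turned for COR15B between NAA+BA and mock without 1 array (-0.71 to 0.30) and with all arrays of number 3 left out (0.13), for ZAT10 with array weights (0.20 with NAA and 0.14 with NAA+BA), and for HON1 (-0.24 to 0.058) and HON2 (-0.21 to 0.12) between NAA and mock without 1 array, and for HON2 centred on the median (0.010). The causes were not tested. COR15A left the probe sets called between NAA+BA and mock at an adjusted p under 0.01. Calls of other genes that changed with a setting other than a left-out array were those of COR15B with the replicate block, of LTI30, lost at treat, at an adjusted p under 0.01 and with only the 6 arrays compared, and of COR47 between NAA+BA and mock, gained with array weights, without a fold threshold and without number 3. Other named genes were not followed through the alternatives. Signal near the array's dim end limits the fold of HIS1-3 with NAA.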
